A study of Mus musculus with 6 samples.

Results

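The 52 genes described here encode chromatin remodellers and histone modifiers: methyltransferases, demethylases, acetyltransferases and deacetylases of histones, subunits of the SWI/SNF complexes, CHD remodellers, and proteins that read histone marks or fold chromosomes. The genes were chosen by name. Their accessible regions were drawn from 97124 ATAC-seq peaks with coordinates in mm10. A peak was given to a gene when it overlapped the gene body, or, where it overlapped no gene, when that gene was the nearest protein-coding gene within 100 kb in the RefSeq annotation of GRCm38.p6. By that rule 594 peaks belonged to the 52 genes, 479 of them over a gene body and 115 beside one, and each gene held 1 to 76 of them (median 7.5). Of the 594 peaks, 24 also overlapped a second gene. A peak's gene is given here by position, and regulation of that gene was not measured.

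Chromatin accessibility was assayed by ATAC-seq, in which a transposase inserts adapters into open DNA, in primary bone marrow B-cells of PEtg mice that carry H2B-GFP, a fluorescent histone that is diluted as cells divide. The quiescent group was the H2B-GFP high fraction (n = 3 samples) and the proliferating group was the H2B-GFP low fraction (n = 3 samples). Both groups share the PEtg background, so no wild-type cells enter the comparison, and the labels give no age, sex or transgene promoter. The labels do not tell whether each sample is a separate animal, and the p-values therefore reflect variation among the 3 samples of a group, some of which may be technical.

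Chromatin regulators set how tightly nucleosomes hold DNA and which marks they carry. Acetyltransferases such as CREBBP and EP300 mark active promoters and enhancers, methyltransferases of the KMT2 family write the H3K4 marks found at the same elements, and deacetylases and demethylases remove marks. SWI/SNF and CHD complexes use ATP to slide or evict nucleosomes, and several of these genes, among them Kmt2a, Crebbp, Nsd2, Setd2 and Arid1a, are recurrently altered in leukaemias and lymphomas.

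Deposited totals were nearly equal, 20904407 to 21518630 per sample. Estimated reads in peaks ranged between 14017903 and 28611434 for the quiescent group, and between 8053499 and 48409277 for the proliferating group. All 10 B-cell markers examined had a peak at their start, and 1 of them, Pax5, was lower in quiescent cells. A start peak was present for 2 of 8 T and NK cell markers, 2 of 8 myeloid markers, 4 of 8 erythroid and megakaryocyte markers and 5 of 6 plasma and plasmacytoid dendritic cell markers. Myeloid start signal summed to 559 to 760 in quiescent samples and 317 to 372 in proliferating samples, with Csf1r called higher in quiescent cells and no start peak for Mpo, Elane, S100a8, S100a9, Ltf or Csf3r. The plasma and plasmacytoid dendritic cell sum was 1928 to 2130 in quiescent samples and 1431 to 1820 in proliferating samples, with Siglech called higher in quiescent cells. Its log2 fold change was 1.35. The remaining start peaks of that list ran from -0.04 for Sdc1 to 0.12 for Xbp1 and did not pass. That sum therefore does not show a rise across the list. The part of other cell types in the changes described here was not tested.

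Called changes in the accessibility of the chromatin regulator genes lay at a gene start in 3 of 44 cases (6.82%), against 5.62% of all called peaks. Of the 594 peaks, 560 were strong enough to be tested, and the 44 passed an adjusted p of 0.05, against a background of 6.72% of all tested peaks (limma on log2(signal + 1), Benjamini-Hochberg over all 87411 tested peaks). Of the 44, 29 were higher in quiescent cells, against a background of 4.01% of all tested peaks called higher, and 15 were lower, against a background of 2.72%. The higher share among the genes' peaks was 5.18% and the lower share 2.68%, so the lower share lay at the background and the higher share a little above it. Groups did not overlap, with quiescent samples all above, at 112 of the 560 peaks (20.0%, background 15.4%), and with quiescent samples all below at 55 (9.82%, background 14.9%). The median log2 fold change, quiescent over proliferating, was 0.09 over the 560 peaks and -0.01 over all tested peaks.

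The called peaks fell in 22 of the 52 genes. In 12 genes they were all higher in quiescent cells, in 3 all lower, and in 7 they went both ways, while 30 genes had none. A gene with more peaks has more chances of a call. The share of all genes with a called peak was not counted, so these gene counts have no background to be read against. Of the 44, 35 (79.5%) had a mean signal above 82.0, the median of all tested peaks, against 70.3% of all called peaks, and 0 of the 44 overlapped a second gene. Away from starts, 20 of 373 peaks inside gene bodies rose and 9 fell, against 4.55% and 2.98% of all such peaks. Between genes, 7 of 103 rose and 5 fell, against 4.77% and 3.06% of all such peaks.

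**Figure D1:**
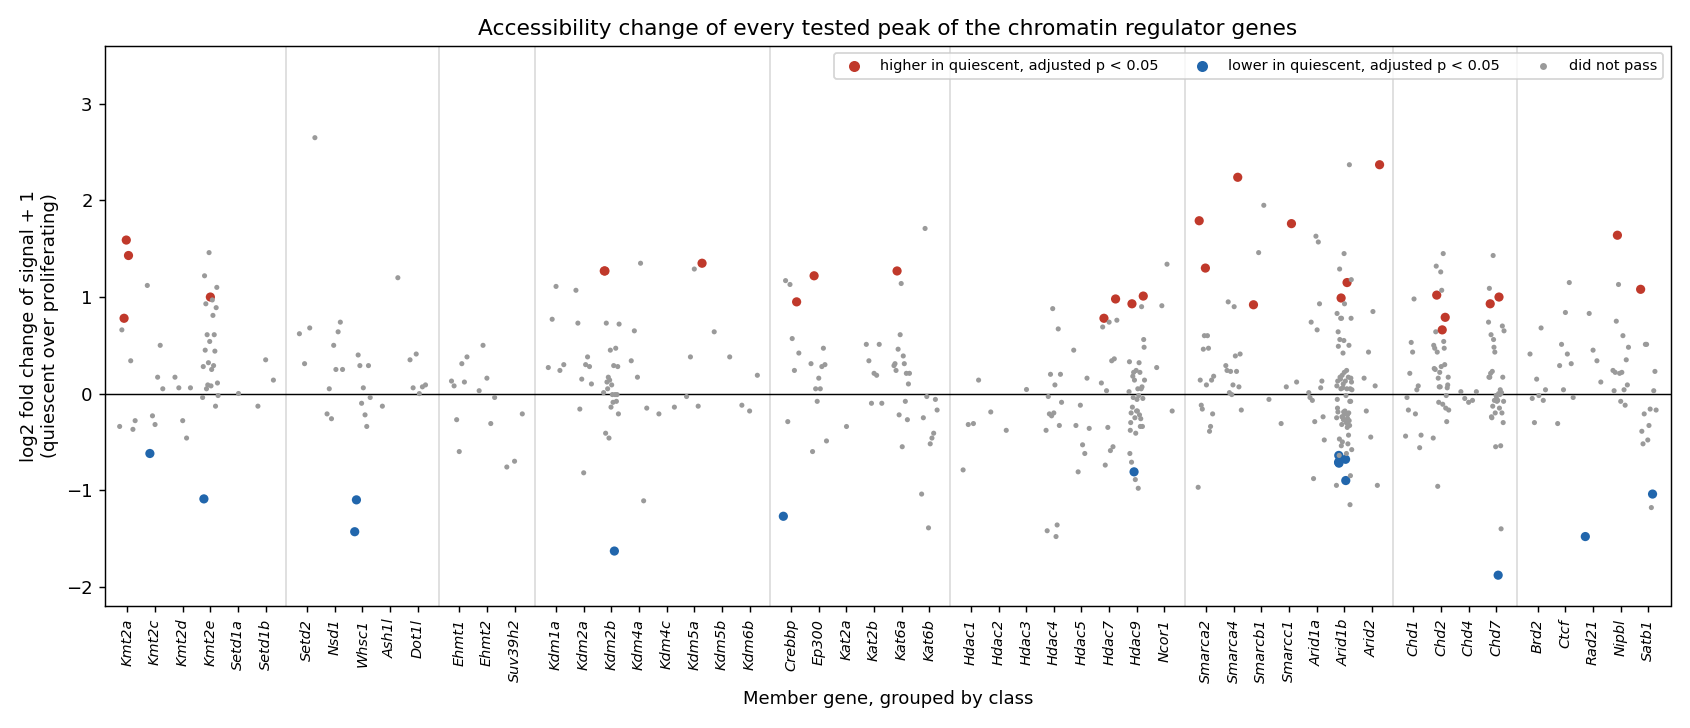
Each point is 1 tested peak, placed by its gene on the horizontal axis (grouped by class, from H3K4 methyltransferases at the left to readers and architecture at the right) and by its log2 fold change of signal + 1, quiescent over proliferating, on the vertical axis. Red points passed an adjusted p of 0.05 as higher in quiescent cells (29), blue points passed as lower (15), and the points above 2 that passed belong to Smarca4 and Arid2.

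These counts depend on how the spread is estimated and on single samples. Samples with the same number in both groups deviated together, and with that number as a block 106 of the 560 peaks passed, 73 higher and 33 lower, against backgrounds of 18.3% in either direction, 10.2% higher and 8.14% lower. All 44 were among the 106. Without quiescent sample 3 the count was 0 by limma, and it was also 0 over all 87411 tested peaks. In that fit 109 of 560 peaks had an unadjusted p under 0.05 (19.5%, against 18.9% of all tested peaks). Leaving out quiescent sample 2 instead gave 3 calls, against 161 over all tested peaks. Leaving out either proliferating sample 2 or 3 gave 9, against 790 and 1160 over all tested peaks. The losses given below for single classes are thus not particular to those classes. With estimated reads scaled to their totals, an alternative chosen after seeing the data that places the median of all tested peaks at -0.27, 28 peaks were higher and 40 lower (limma-voom), against backgrounds of 4.88% and 10.3%. With the same reads scaled by median-of-ratios, 61 were higher and 13 lower, against 9.89% and 3.97%. The median of the genes' peaks then lay 0.10 and 0.09 above that of all peaks on the log2 scale, so the directions below are relative to the authors' scaling, and none of the 41 peak, sum and ratio values changed sign in the settings each was fitted in.

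At gene starts, taken as the strongest peak within 1 kb of an annotated start, or of either gene end for the 17 genes with no annotated start in the table used, 48 of the 52 genes had a tested peak. Crebbp and Chd7 rose and Whsc1 fell in quiescent cells, 2 and 1 of 48, against backgrounds of 0.958% higher, 1.49% lower and 2.44% in either direction over 11581 genes. The median log2 fold change of these start peaks was 0.03, and that of all start peaks was -0.10. The other 45 start peaks had log2 fold changes of -0.71 to 0.64 and did not pass. Without any 1 of the quiescent samples, or without proliferating sample 2 or 3, the number of start calls was 0 by limma, with 5 to 9 at an unadjusted p under 0.05. In these fits 15965 to 22126 of all 87411 tested peaks had an unadjusted p under 0.05, and the share over all start peaks was not counted. By limma on all 6 samples start peaks were called less often than all peaks (2.44% against 6.72%). The numbers for all peaks are therefore no matched background for the 5 to 9. With the replicate number as a block the number of start calls was 7, against backgrounds of 8.71% in either direction, 2.84% higher and 5.87% lower. Setd2 and Satb1 joined Crebbp and Chd7 as higher, and Hdac9 and Hdac7 joined Whsc1 as lower.

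The promoters of Crebbp, Kdm5b, Hdac7 and Hdac9 are shown because their start peaks lay at the ends of the range of change and RefSeq sequence (GRCm38.p6) was at hand. Crebbp and Kdm5b have 1 listed start each, Hdac9 has 2 and Hdac7 has 4, and the start nearest to the peak was taken. The peak lay 0 bp from that start for Hdac9 and Kdm5b, 64 bp for Hdac7 and 838 bp for Crebbp. The Crebbp sequence and its matches thus lie outside the called peak. Each runs 5′ to 3′ on the strand of the gene, from 250 bases before the start to 50 after it. Capitals mark matches on either strand to TGANTCA (the core that AP-1 factors bind), TGTGGT (bound by RUNX factors), CCAAT (bound by NF-Y), GGGCGG (bound by SP and KLF factors), CTTCCG (bound by ETS factors) or CACGTG (an E-box). The wider E-box form CANNTG, which includes CACGTG, was searched but is not capitalised.
Crebbp (chr16:4213355-4213654, minus strand): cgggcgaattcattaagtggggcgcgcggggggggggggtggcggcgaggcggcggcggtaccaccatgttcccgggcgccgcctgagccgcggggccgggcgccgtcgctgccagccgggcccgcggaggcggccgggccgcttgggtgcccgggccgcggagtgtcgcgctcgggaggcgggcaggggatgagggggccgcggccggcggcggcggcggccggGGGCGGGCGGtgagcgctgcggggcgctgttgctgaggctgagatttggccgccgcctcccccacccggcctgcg
Kdm5b (chr1:134559928-134560227, plus strand): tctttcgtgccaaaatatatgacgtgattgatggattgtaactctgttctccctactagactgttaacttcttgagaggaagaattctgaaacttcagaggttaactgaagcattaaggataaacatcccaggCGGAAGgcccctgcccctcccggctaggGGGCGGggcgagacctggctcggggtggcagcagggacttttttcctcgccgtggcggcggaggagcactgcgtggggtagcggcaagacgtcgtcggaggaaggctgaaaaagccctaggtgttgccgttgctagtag
Hdac7 (chr15:97831446-97831745, minus strand): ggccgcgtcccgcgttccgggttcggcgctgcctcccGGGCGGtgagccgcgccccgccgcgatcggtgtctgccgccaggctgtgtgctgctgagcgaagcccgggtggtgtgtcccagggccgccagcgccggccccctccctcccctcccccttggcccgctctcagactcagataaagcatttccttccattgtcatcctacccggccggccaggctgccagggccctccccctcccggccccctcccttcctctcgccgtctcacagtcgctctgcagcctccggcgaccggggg
Hdac9 (chr12:34528840-34529139, minus strand): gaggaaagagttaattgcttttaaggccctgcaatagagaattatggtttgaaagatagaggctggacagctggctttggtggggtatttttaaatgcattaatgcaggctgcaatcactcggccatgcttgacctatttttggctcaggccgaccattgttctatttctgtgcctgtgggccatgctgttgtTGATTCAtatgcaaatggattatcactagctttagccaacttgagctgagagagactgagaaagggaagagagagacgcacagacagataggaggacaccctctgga

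The promoter of Crebbp held 82.0% G and C and 2 overlapping GGGCGG matches, whose first bases lie at -25 and -21 from the start, while that of Hdac7 held 73.7% G and C and 1 GGGCGG match at -213. Kdm5b had 54.7% G and C, a GGGCGG match at -89 and a CTTCCG match on the opposite strand at -117. Hdac9 had 45.3% G and C, no GGGCGG, and 1 match to TGANTCA, read as TGATTCA at -57, with 3 matches to CANNTG. Over 17492 RefSeq promoters of this length, 7.1% held TGANTCA, 46.3% GGGCGG, 21.5% CTTCCG, 39.0% CCAAT, 15.1% TGTGGT, 7.9% CACGTG and 68.8% CANNTG. Among the 35 promoters found for the 52 genes, 11.4% held TGANTCA, 71.4% GGGCGG, 17.1% CTTCCG, 20.0% CCAAT, 8.6% TGTGGT, 5.7% CACGTG and 51.4% CANNTG. A match is a run of letters and not a measured binding site.

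The start region of Crebbp, which encodes an acetyltransferase of H3K27 and a coactivator of many transcription factors, opened in quiescent cells at a peak 838 bp from its start (chr16:4212006-4212566). In the order of their numbers, samples had a signal there of 177, 129 and 162 in the quiescent group and 77.5, 78.5 and 82.1 in the proliferating group, and later triplets keep this order. The proliferating samples differed little among themselves and all lay under the lowest quiescent sample, a log2 fold change of 0.95 ± 0.21 (SE, adjusted p = 0.0319, limma). Chd7, a remodeller bound at enhancers, had 297, 218 and 222 in quiescent samples and 99.3, 139 and 148 in proliferating samples at one of its ends (chr4:8689244-8690405), a log2 fold change of 0.93 ± 0.23 (SE, adjusted p = 0.0429). Again the groups did not overlap, though 1 quiescent sample stood above the other 2. Without quiescent sample 1 neither passed, with adjusted p of 0.0612 for Crebbp and 0.0825 for Chd7, and with estimated reads scaled to totals Chd7 did not (0.0534).

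Whsc1, also named Nsd2, encodes a methyltransferase of H3K36, and its start peak fell. At the peak 226 bp from an end of the gene (chr5:33819535-33820450) the signal was 64.1, 56.1 and 89.4 in quiescent samples and 160, 139 and 145 in proliferating samples. Every proliferating sample exceeded every quiescent one, a log2 fold change of -1.10 ± 0.24 (SE, adjusted p = 0.0304, limma). A weaker neighbour, 1230 bp from the same end, fell as well, with 16.4, 12.1 and 16.3 in quiescent samples and 48.4, 41.8 and 35.6 in proliferating samples, although the smallest estimated read count there was 7. Without quiescent sample 1 the adjusted p of the first peak was 0.0502, and without quiescent sample 2 it was 0.11. With a start window of 3 kb 4 starts of the 52 genes were called higher and 0 lower, and with peaks over gene bodies alone 2 and 0, so the lower call at a start depends on the 1 kb window and on peaks beside the gene.

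Hdac9 and Hdac7 encode class IIa deacetylases, which are shuttled between nucleus and cytoplasm by signalling. Hdac9 had 373, 304 and 284 in quiescent samples and 670, 486 and 430 in proliferating samples at 1 of its 2 listed starts. This start lies inside the gene body, and the log2 fold change there of -0.71 ± 0.20 (SE) did not pass (adjusted p = 0.0694, limma, and 0.00539 with the replicate number as a block). Near 1 of its 4 listed starts, also inside the gene body, Hdac7 had 307, 222 and 279 in quiescent samples and 415, 365 and 433 in proliferating samples. The log2 fold change was -0.59 ± 0.18 (SE, adjusted p = 0.0784, limma, and 0.0165 with the block). The groups did not overlap at either start. Kdm5b, which encodes a demethylase of H3K4, had the highest fold change among the starts that did not pass, with 147, 93.4 and 70.6 in quiescent samples and 63.6, 69.6 and 56.7 in proliferating samples. Its quiescent samples spread widely and the difference of 0.64 ± 0.29 (log2, SE) did not pass (adjusted p = 0.221).

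Among the H3K4 methyltransferases (6 genes, 49 tested peaks), 4 peaks rose and 2 fell in quiescent cells, and the median log2 fold change was 0.25. With the replicate block 12 were higher and 2 lower, and with estimated reads 5 and 2 when scaled to totals and 10 and 0 by median-of-ratios (limma-voom). The higher and lower shares were 8.16% and 4.08% by limma, against 4.01% and 2.72% of all tested peaks. With the block they were 24.5% and 4.08%, against 10.2% and 8.14%. For estimated reads the backgrounds were 4.88% and 10.3% scaled to totals, and 9.89% and 3.97% by median-of-ratios. These backgrounds apply to each class below. Kmt2a, which encodes the methyltransferase MLL1, known for its rearrangements in acute leukaemia, held 3 of the 4 peaks called higher by limma, all inside the gene body. The strongest lay 13038 bp from the start (chr9:44866386-44868251) and had 560, 748 and 820 in quiescent samples and 162, 253 and 307 in proliferating samples. The lowest quiescent sample was well above the highest proliferating one, a log2 fold change of 1.59 ± 0.25 (SE, adjusted p = 0.0124, limma). Its neighbour 12165 bp from the start had 155, 103 and 125 in quiescent samples and 58.3, 40.2 and 41.6 in proliferating samples (log2 fold change 1.43 ± 0.26, SE, adjusted p = 0.0187). Another peak, 17678 bp from the start, rose less, by 0.78 ± 0.18 (log2, SE, adjusted p = 0.039), with a mean of 187 ± 5.23 in quiescent cells and 108 ± 8.59 in proliferating cells (SD, n = 3 each). The Kmt2a start peak had a log2 fold change of 0.34 and did not pass (adjusted p = 0.25).

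Kmt2e, whose product binds the H3K4 trimethyl mark, had 1 called peak each way out of 25. The peak 1494 bp from an end of the gene had 127, 115 and 122 in quiescent samples and 66.4, 53.4 and 61.5 in proliferating samples (log2 fold change 1.0 ± 0.21, SE, adjusted p = 0.0297, limma). The peak 40958 bp away had 227, 131 and 130 in quiescent samples and 342, 385 and 285 in proliferating samples (log2 fold change -1.09 ± 0.25, SE, adjusted p = 0.0366). With the block 8 Kmt2e peaks passed as higher and 1 as lower. In Kmt2c, encoding a methyltransferase of enhancers, a peak 118633 bp from the start fell, with 425, 382 and 373 in quiescent samples and 617, 647 and 552 in proliferating samples (log2 fold change -0.62 ± 0.14, SE, adjusted p = 0.0367). Kmt2d, Setd1a and Setd1b, the other writers of this mark, had no called peak, and the class's uncalled peaks had log2 fold changes of -0.46 to 1.46. Of the 5 named calls of the class, 0 passed without quiescent sample 3 (adjusted p 0.0724 to 0.139) or quiescent sample 2 (0.0625 to 0.133), and the Kmt2a peak 13038 bp from the start was the 1 that passed without proliferating sample 2 (0.0453) or proliferating sample 3 (0.034). The higher Kmt2e peak also did not pass without quiescent sample 1 (0.0528) or with estimated reads scaled to totals (0.0545). Scaled by median-of-ratios, the lower peaks of Kmt2e (-0.86, adjusted p = 0.0515) and Kmt2c (-0.35, adjusted p = 0.178) did not pass (limma-voom).

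The H3K36 and H3K79 methyltransferases (5 genes, 30 tested peaks) gave 0 higher and 2 lower peaks by limma, both in Whsc1 and described above. At an unadjusted p under 0.05, 4 were higher and 2 lower, against 21185 of all 87411 tested peaks in either direction (limma). The same background applies to the unadjusted class counts below. With the replicate block 3 were higher and 2 lower, and with estimated reads 0 and 2 when scaled to totals and 2 and 2 by median-of-ratios (limma-voom). Setd2, which encodes the enzyme that trimethylates H3K36, had at its strongest start peak 640, 1080 and 1203 in quiescent samples and 432, 738 and 714 in proliferating samples. Quiescent sample 1 lay inside the proliferating range, and the log2 fold change of 0.62 ± 0.27 (SE) did not pass (adjusted p = 0.204), but each quiescent sample exceeded the proliferating sample of the same number (adjusted p = 0.00448 with the block). Nsd1 and Ash1l, also H3K36 methyltransferases, and Dot1l, the H3K79 methyltransferase, had no called peak. The H3K9 methyltransferases Ehmt1, Ehmt2 and Suv39h2 gave 0 called peaks of 15 by limma, with 1 higher and 2 lower at an unadjusted p under 0.05, 1 lower with the block, and 3 lower with estimated reads scaled to totals. Their peaks had log2 fold changes of -0.76 to 0.50, with a median of 0.03.

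Histone demethylases (8 genes, 56 tested peaks) had 3 higher peaks and 1 lower, and 3 of the 4 lay in Kdm2b, a demethylase gene whose product also recruits a Polycomb complex to CpG islands. With the block 8 were higher and 2 lower, and with estimated reads 3 and 1 when scaled to totals and 5 and 1 by median-of-ratios. The class's shares were 5.36% higher and 1.79% lower by limma, against 4.01% and 2.72% of all tested peaks. With the block they were 14.3% and 3.57%, against 10.2% and 8.14%. A peak 17974 bp from a start of Kdm2b (chr5:122970050-122970533) had 68.7, 63.2 and 90.9 in quiescent samples and 249, 218 and 221 in proliferating samples. The signal fell to about the same low level in all 3 quiescent samples, a log2 fold change of -1.63 ± 0.21 (SE, adjusted p = 0.00818, limma). In the same gene body, a peak 14479 bp from a start rose, with 119, 119 and 90.4 in quiescent samples and 50.1, 46.4 and 38.2 in proliferating samples (log2 fold change 1.27 ± 0.24, SE, adjusted p = 0.0216), as did the adjoining peak 14984 bp from a start (1.27 ± 0.30, SE, adjusted p = 0.0407).

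Kdm5a, which encodes an H3K4 demethylase, had its called peak 7512 bp beyond an end of the gene (chr6:120452086-120453586). The signal there was 449, 519 and 568 in quiescent samples and 229, 157 and 219 in proliferating samples, with no overlap, a log2 fold change of 1.35 ± 0.19 (SE, adjusted p = 0.01, limma). No start of Kdm5a is annotated. Within 1 kb of the gene's ends the 2 groups overlapped, with 689, 785 and 753 in quiescent samples and 671, 748 and 870 in proliferating samples. Kdm1a, Kdm2a, Kdm4a, Kdm4c, Kdm5b and Kdm6b had no called peak, and with the block Kdm4a had 2 higher and 1 lower. Of the 3 named calls in Kdm2b and Kdm5a, 0 passed without quiescent sample 3 (adjusted p 0.0502 to 0.0684) or quiescent sample 2 (0.0537 to 0.0917), and the Kdm2b peak that fell and the Kdm5a peak passed without proliferating sample 2 or 3.

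In the histone acetyltransferases (6 genes, 53 tested peaks) 3 peaks rose and 1 fell. With the block 7 were higher and 2 lower, and with estimated reads 4 and 2 when scaled to totals and 7 and 2 by median-of-ratios. The class's shares were 5.66% higher and 1.89% lower by limma, against 4.01% and 2.72% of all tested peaks. With the block they were 13.2% and 3.77%, against 10.2% and 8.14%. Beside its start peak, Crebbp had a weak peak 215 bp beyond the far end of the gene that fell, with 36.9, 34.0 and 23.3 in quiescent samples and 62.3, 97.8 and 71.2 in proliferating samples (log2 fold change -1.27 ± 0.30, SE, adjusted p = 0.0415, limma). Kat6a, an acetyltransferase gene that is fused to Crebbp in a form of acute myeloid leukaemia, had a peak 1753 bp from an end with 95.5, 157 and 153 in quiescent samples and 58.5, 47.6 and 57.3 in proliferating samples (log2 fold change 1.27 ± 0.26, SE, adjusted p = 0.0264). Near Ep300, the paralogue of Crebbp, a peak 46152 bp from its start rose at low signal, with a mean of 71.3 ± 9.06 in quiescent cells and 30.3 ± 6.09 in proliferating cells (SD, n = 3 each, adjusted p = 0.0357). Kat2a, Kat2b and Kat6b had no called peak. Of the 3 named calls in Crebbp and Kat6a, 0 passed when sample 2 or 3 of either group was left out, at adjusted p of 0.0739 to 0.173, and the Kat6a peak did not pass with estimated reads scaled to totals (0.0618).

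Deacetylase and corepressor genes (8 genes, 85 tested peaks) had 4 higher peaks and 1 lower, all in Hdac7 and Hdac9, and a median log2 fold change of -0.06. By limma the higher share was 4.71%, against 4.01% of all tested peaks, and 1 of 85 was lower, against 2.72%. With the replicate block 5 were higher and 10 lower, shares of 5.88% and 11.8%, against 10.2% and 8.14%. At an unadjusted p under 0.05, 6 were higher and 10 lower, and no background by direction was counted. With estimated reads 2 were higher and 9 lower when scaled to totals, and 5 and 2 by median-of-ratios (limma-voom). All tested peaks turned in the same way between these scalings, from 4.88% and 10.3% to 9.89% and 3.97%, so that turn is not particular to this class. Hdac7 rose at a peak 1479 bp from a start (chr15:97816342-97817582), with 417, 491 and 579 in quiescent samples and 289, 253 and 317 in proliferating samples (log2 fold change 0.78 ± 0.18, SE, adjusted p = 0.0347, limma). A second Hdac7 peak, 2676 bp from a start, rose by 0.98 ± 0.24 (log2, SE, adjusted p = 0.0448). The start peak of the same gene, described above, had a log2 fold change of -0.59 that did not pass.

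Hdac9, a long gene (chr12:34047580-34917095), held 42 peaks. A peak 68919 bp from a start had 185, 146 and 210 in quiescent samples and 91.0, 75.6 and 98.8 in proliferating samples (log2 fold change 1.01 ± 0.22, SE, adjusted p = 0.032, limma). One 130889 bp from a start had 278, 224 and 357 in quiescent samples and 126, 145 and 176 in proliferating samples (0.93 ± 0.22, SE, adjusted p = 0.0432). In the opposite direction, a peak 149843 bp from a start fell, with 171, 229 and 235 in quiescent samples and 315, 429 and 368 in proliferating samples (-0.81 ± 0.20, SE, adjusted p = 0.0435). The class I enzymes Hdac1, Hdac2 and Hdac3, the class IIa genes Hdac4 and Hdac5, and the corepressor Ncor1 had no called peak, though with the block Hdac4 had 1 higher and 3 lower and Hdac5 had 1 lower. Of the 4 named calls in Hdac7 and Hdac9, 0 passed when sample 2 or 3 of either group was left out (adjusted p 0.0728 to 0.165), and without quiescent sample 1 the Hdac7 call was the 1 that did. The Hdac9 peak 130889 bp from a start also did not pass without proliferating sample 1 (0.0586) or with estimated reads scaled to totals (0.0522).

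The SWI/SNF genes (7 genes, 134 tested peaks) held the largest fold changes among the called peaks of the 52 genes. They had 8 higher and 5 lower peaks, with the block 19 and 9, and with estimated reads 7 and 15 when scaled to totals and 14 and 1 by median-of-ratios (limma-voom). The class's shares were 5.97% higher and 3.73% lower by limma, against 4.01% and 2.72% of all tested peaks. With the block they were 14.2% and 6.72%, against 10.2% and 8.14%. Smarca4 encodes BRG1, an ATPase of the complex, and a peak inside its gene body 35718 bp from a start (chr9:21651887-21653983) had 743, 1165 and 1203 in quiescent samples and 195, 203 and 247 in proliferating samples. The means were 1037 ± 255 in quiescent cells and 215 ± 27.8 in proliferating cells (SD, n = 3 each), a log2 fold change of 2.24 ± 0.21 (SE, adjusted p = 0.00505, limma). Arid2, which encodes a subunit of the PBAF form of the complex, had a like peak 27346 bp from an end of the gene (chr15:96377078-96378117). Its signal was 708, 1147 and 1214 in quiescent samples and 155, 185 and 244 in proliferating samples, a log2 fold change of 2.37 ± 0.25 (SE, adjusted p = 0.00559). At both peaks quiescent sample 1 was the lowest of its group and still far above the highest proliferating sample. No other tested peak of Smarca4 or Arid2 passed, and with the block Arid2 had 1 lower as well.

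Smarca2, the gene of the alternative ATPase BRM, rose at 2 peaks: 80033 bp from a start, with 208, 148 and 186 in quiescent samples and 98.8, 41.0 and 32.7 in proliferating samples (log2 fold change 1.79 ± 0.38, SE, adjusted p = 0.0299, limma), and 38632 bp from a start (1.30 ± 0.32, SE, adjusted p = 0.0467). Smarcb1, the gene of a core subunit lost in rhabdoid tumours, rose at a peak 23602 bp from its start, with 173, 170 and 171 in quiescent samples and 77.6, 95.0 and 98.3 in proliferating samples (0.92 ± 0.20, SE, adjusted p = 0.0288). The Smarcb1 samples agreed closely within each group. Smarcc1, which encodes another core subunit, had a called higher peak of low signal, with 93.2, 85.7 and 32.3 in quiescent samples and 19.6, 18.0 and 16.9 in proliferating samples. Arid1a, the gene of a DNA-binding subunit of the BAF form, had no called peak, and 3 higher ones with the block.

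Arid1b, the paralogue of Arid1a, held 76 peaks, more than any other of the 52 genes, and changed in both directions along its body: 2 of 74 tested peaks rose and 5 fell, and with the block 8 rose and 8 fell. The strongest of the 7 lay 183557 bp from the start (chr17:5178631-5181740) and fell, with 1160, 930 and 951 in quiescent samples and 1966, 1802 and 1892 in proliferating samples (log2 fold change -0.90 ± 0.12, SE, adjusted p = 0.00886, limma). Further along the body, the peak 198556 bp from the start rose, with 845, 781 and 721 in quiescent samples and 303, 384 and 373 in proliferating samples (1.15 ± 0.15, SE, adjusted p = 0.00839). The groups were separated at both peaks by more than the spread within either.

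Close to the Arid1b start, 3 peaks in a row fell together. The peak 9255 bp from the start had a mean of 510 ± 52.4 in quiescent cells and 834 ± 51.6 in proliferating cells, and that at 11675 bp had 842 ± 55.9 in quiescent cells and 1319 ± 144 in proliferating cells (SD, n = 3 each). The peak at 14026 bp had 338 ± 14.6 in quiescent cells and 557 ± 35.6 in proliferating cells. Their log2 fold changes were -0.71, -0.64 and -0.72 (adjusted p = 0.0215, 0.0237 and 0.0222, limma). The start peak itself had 390, 346 and 431 in quiescent samples and 308, 494 and 520 in proliferating samples, with full overlap. Of the 7 named calls in the SWI/SNF genes, 0 passed without quiescent sample 3 (adjusted p 0.0502 to 0.117), the Smarca4 and Arid2 peaks were the 2 that passed without quiescent sample 2 (0.0484 each), and these and the opposed pair in Arid1b were the 4 that passed without proliferating sample 2 or proliferating sample 3. The Smarca2 peak also did not pass without quiescent sample 1 (0.0559). With estimated reads scaled by median-of-ratios, the named lower Arid1b peaks at 9255, 14026 and 183557 bp did not pass (adjusted p 0.0834, 0.0734 and 0.0668).

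**Figure D2:**
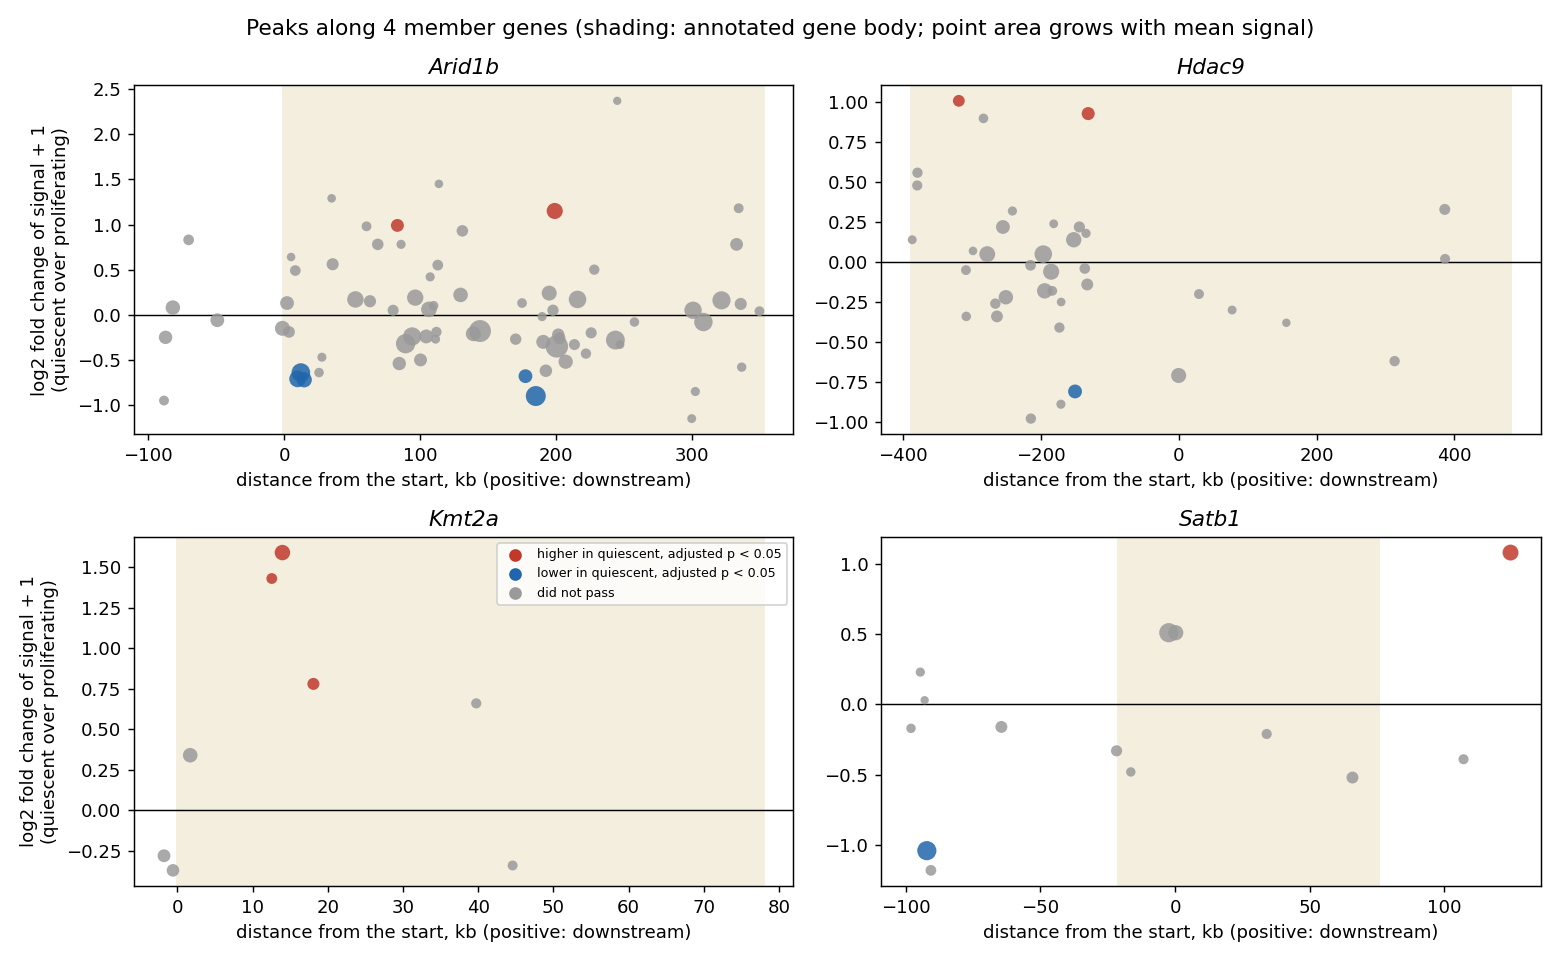
Each panel shows the tested peaks of 1 gene by their distance from an annotated start in kb (the start nearest to the strongest start peak, positive downstream) and their log2 fold change of signal + 1, quiescent over proliferating, with the gene body shaded. Arid1b has called peaks both ways along its body, the 3 called Kmt2a peaks are all higher in quiescent cells, and the 2 called Satb1 peaks lie outside the gene on opposite sides and differ in direction.

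CHD remodellers (4 genes, 87 tested peaks) had 5 higher peaks and 1 lower, with the block 12 and 2, and with estimated reads 4 and 3 when scaled to totals and 10 and 2 by median-of-ratios. The class's shares were 5.75% higher and 1.15% lower by limma, against 4.01% and 2.72% of all tested peaks. With the block they were 13.8% and 2.3%, against 10.2% and 8.14%. Chd2, whose product is linked to deposition of the histone variant H3.3, held 3 of the 5 peaks called higher by limma. Its peak 9058 bp from an end of the gene (chr7:73530293-73532688) had 1175, 1814 and 1713 in quiescent samples and 562, 900 and 861 in proliferating samples (log2 fold change 1.02 ± 0.22, SE, adjusted p = 0.0304, limma). Sample 1 was the lowest of its group on both sides, and with the replicate number as a block the adjusted p was 0.00026. The other called Chd2 peaks, 14904 and 50865 bp away, rose by 0.66 ± 0.16 and 0.79 ± 0.17 (log2, SE, adjusted p = 0.0457 and 0.03).

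Beside its start peak, Chd7 rose 25198 bp from an end (chr4:8842352-8843251), with 283, 341 and 399 in quiescent samples and 186, 144 and 180 in proliferating samples (log2 fold change 1.0 ± 0.20, SE, adjusted p = 0.0229, limma). A weak peak 33573 bp from the same end fell, with 24.6, 18.4 and 8.68 in quiescent samples and 62.2, 65.0 and 55.9 in proliferating samples (-1.88 ± 0.40, SE, adjusted p = 0.0297), where the smallest estimated read count was 7. Chd1, which encodes a remodeller of transcribed genes, and Chd4, which encodes the ATPase of NuRD, had no called peak. Of the 4 named calls in Chd2 and Chd7, 0 passed when sample 2 or 3 of either group was left out (adjusted p 0.0637 to 0.127).

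Readers and architectural genes (5 genes, 51 tested peaks) had 2 higher and 2 lower peaks, with the block 7 and 3, and with estimated reads 3 and 3 when scaled to totals and 8 and 3 by median-of-ratios. The class's shares were 3.92% higher and 3.92% lower by limma, against 4.01% and 2.72% of all tested peaks. With the block they were 13.7% and 5.88%, against 10.2% and 8.14%. Satb1, which encodes a chromatin organiser of lymphoid cells, had 1 each way, both outside the gene. The peak 70294 bp upstream of a start (chr17:51903584-51904818) fell, with 760, 830 and 820 in quiescent samples and 1647, 1694 and 1600 in proliferating samples. Samples of each group lay within a narrow range, and the log2 fold change was -1.04 ± 0.11 (SE, adjusted p = 0.00592, limma). On the other side of the gene, 47955 bp beyond its end (chr17:51686844-51688232), the signal was 578, 770 and 861 in quiescent samples and 311, 361 and 360 in proliferating samples (1.08 ± 0.18, SE, adjusted p = 0.0137).

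Nipbl, which encodes the loader of cohesin, rose at a peak in its body 61968 bp from an end (chr15:8402562-8403347), with 241, 357 and 395 in quiescent samples and 105, 97.2 and 108 in proliferating samples (log2 fold change 1.64 ± 0.22, SE, adjusted p = 0.00861, limma). Rad21, which encodes a cohesin subunit, fell at a peak 11888 bp outside the gene, with 122, 84.8 and 41.9 in quiescent samples and 201, 235 and 205 in proliferating samples (-1.48 ± 0.35, SE, adjusted p = 0.0398). The quiescent samples of the Rad21 peak spread widely but stayed under all proliferating ones. Ctcf, the gene of the insulator protein that stops cohesin, and Brd2, a reader of acetylated histones, had no called peak. Of the 4 named calls, 0 passed without quiescent sample 3 (adjusted p 0.0502 to 0.0911). The lower Satb1 peak was the 1 that passed without quiescent sample 2 (0.0484), and this and the Nipbl peak were the 2 that passed without proliferating sample 2 or proliferating sample 3.

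**Figure D3:**
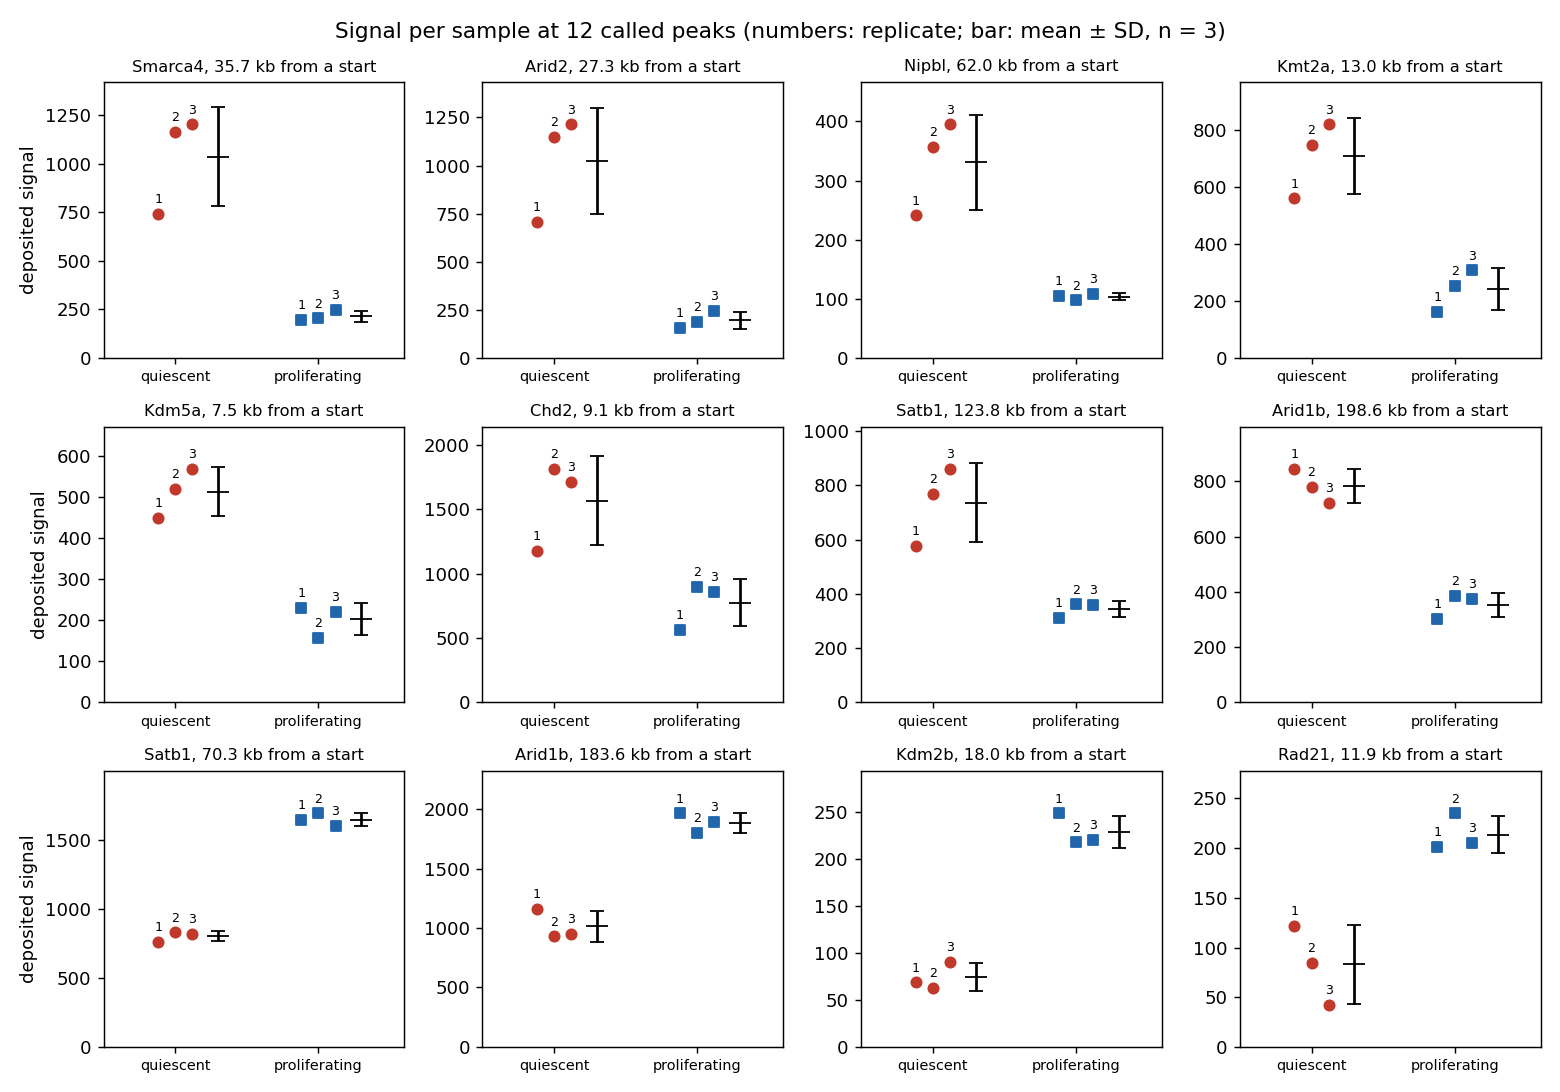
Deposited signal per sample at 12 called peaks, 1 panel each, with quiescent samples as red circles and proliferating samples as blue squares (the number is the replicate, bars are mean ± SD, n = 3); distances are to the nearest start, or to the nearer gene end where no start is annotated. In each panel the groups are apart, with quiescent samples higher in the first 8 panels and lower in the last 4.

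Summed over all its peaks, accessibility rose in quiescent cells for 4 of the 51 genes that could be tested, Arid2, Kmt2a, Crebbp and Smarcb1, and fell for 0, against backgrounds of 3.94% higher, 3.68% lower and 7.63% in either direction over 14252 genes (limma). At an unadjusted p under 0.05, 11 were higher and 3 lower, against 3603 of the 14252 genes in either direction. With estimated reads 3 were higher and 4 lower when scaled to totals, against backgrounds of 5.4% and 16.5%, and 15 were higher and 0 lower by median-of-ratios, against 15.9% and 4.74% (limma-voom). Arid2 summed to 1265, 1716 and 1636 in quiescent samples and 905, 761 and 821 in proliferating samples (log2 fold change 0.88 ± 0.14, SE, adjusted p = 0.0126). Kmt2a summed to 1762, 1961 and 1982 in quiescent samples and 1113, 1283 and 1373 in proliferating samples (0.60 ± 0.11, SE, adjusted p = 0.02). For both genes every quiescent sum exceeded every proliferating one, and at Arid2 the difference between the means at the named peak alone (1023 ± 275 in quiescent cells and 195 ± 45.5 in proliferating cells) exceeded that of the sums (1539 ± 240 and 829 ± 72.1, SD, n = 3 each).

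Crebbp summed to 656, 584 and 639 in quiescent samples and 447, 444 and 444 in proliferating samples (log2 fold change 0.49 ± 0.11, SE, adjusted p = 0.0352, limma). Smarcb1 summed to 482, 429 and 410 in quiescent samples and 307, 305 and 327 in proliferating samples (0.49 ± 0.12, SE, adjusted p = 0.0498). The Smarcb1 call stood at the threshold and was lost with no filter on low values (adjusted p = 0.0547) and with equal totals (0.0572). The Crebbp and Smarcb1 calls were lost with estimated reads scaled to totals (adjusted p 0.446 and 0.227). The median of the 51 log2 fold changes was 0.04, and that of all genes was -0.06.

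With the replicate number as a block, 11 of the 51 sums rose and 2 fell, against backgrounds of 10.1% and 11.4%, and of 21.5% in either direction. Setd2, Kdm5a, Kat2b, Kat6a, Smarca4, Nsd1 and Chd2 joined the 4 as higher, and Arid1b and Hdac5 were lower. Hdac5, another class IIa deacetylase gene, summed to 905, 694 and 671 in quiescent samples and 1077, 977 and 953 in proliferating samples, without overlap (log2 fold change -0.42 ± 0.14, SE, adjusted p = 0.106 without the block and 0.019 with it). When sample 2 or 3 of either group was left out, the number of called sums was 0 by limma, with 7 to 11 genes at an unadjusted p under 0.05. Over all 14252 genes, these fits gave 86 to 157 called sums and 2633 to 2710 at an unadjusted p under 0.05. Without quiescent sample 1 Arid2 and Kmt2a passed as higher and Hdac5 as lower (log2 fold change -0.55, adjusted p = 0.0326), while Crebbp (0.0679) and Smarcb1 (0.102) did not pass.

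**Figure D4:**
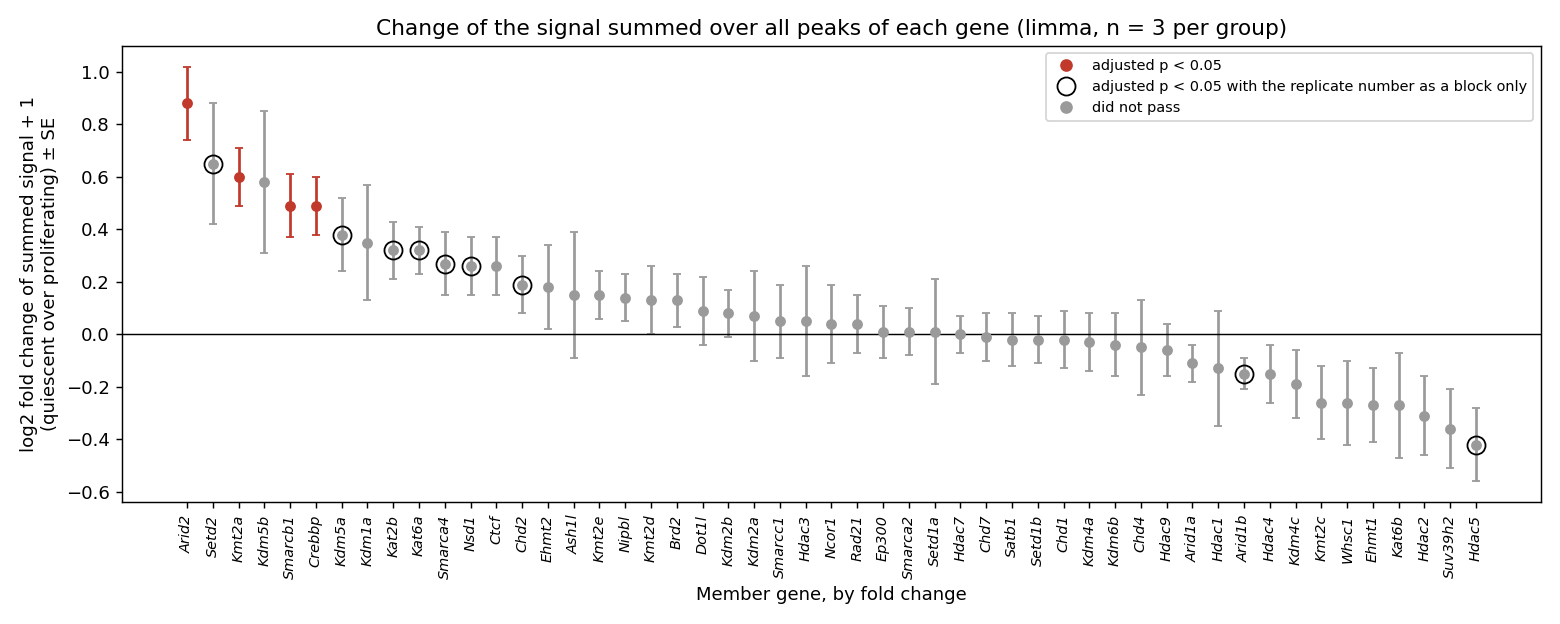
Log2 fold change of the signal summed over all peaks of each gene, quiescent over proliferating, with its SE, for the 51 tested genes in order of fold change. The 4 red points passed an adjusted p of 0.05, the circled points passed only with the replicate number as a block, and values run from 0.88 for Arid2 to -0.42 for Hdac5.

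Start peaks and the other peaks of the same gene did not always move together. The ratio of the summed signal of all other peaks to that of the start peaks could be tested for 46 of the 52 genes, and it rose in quiescent cells for Smarcb1, Arid2 and Kdm5a and fell for 0, against a background of 2.15% higher, 1.02% lower and 3.17% in either direction over 9420 genes (limma). No start is annotated for Arid2 and Kdm5a. Their start peaks are those within 1 kb of either gene end and may not lie at a promoter. At an unadjusted p under 0.05, 10 ratios were higher and 5 lower. The share over all genes at that threshold was not counted, so this number has no background to be read against. Away from its start Smarcb1 summed to 274.3, 239.3 and 240.7 in quiescent samples and 108.2, 115.5 and 124.8 in proliferating samples. At its start it had 207.4, 189.8 and 169.7 in quiescent samples and 198.6, 189.4 and 202.3 in proliferating samples. The ratio thus differed by 1.17 ± 0.16 (log2, SE, adjusted p = 0.0269), with clear separation away from the start and overlap at it.

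The ratio differed by 1.14 ± 0.20 for Arid2 (log2, SE, adjusted p = 0.0357, limma) and by 1.03 ± 0.17 for Kdm5a (adjusted p = 0.0336). With the replicate number as a block these 2 did not pass (adjusted p 0.0572 and 0.051), Smarcb1 did (0.0407), and Setd1b passed as lower (0.0407), against backgrounds of 1.53% higher, 0.817% lower and 2.35% in either direction. The Setd1b ratio rested on weak signal at a gene end with no annotated start, 16.8, 25.7 and 20.7 in quiescent samples and 2.0, 9.0 and 5.5 in proliferating samples. That signal was 1.04% of the gene's total, and its other peaks had a log2 fold change of -0.04. The Kdm5a ratio rested on the peak 7512 bp outside the gene, since with peaks over gene bodies alone it was 0.42 (adjusted p = 0.512). With a start window of 3 kb the Arid2 ratio had an adjusted p of 0.0814. When sample 2 or 3 of either group was left out, the number of called ratios was 0 by limma, with 13 to 16 at an unadjusted p under 0.05. Here too the share over all genes was not counted.

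**Figure D5:**
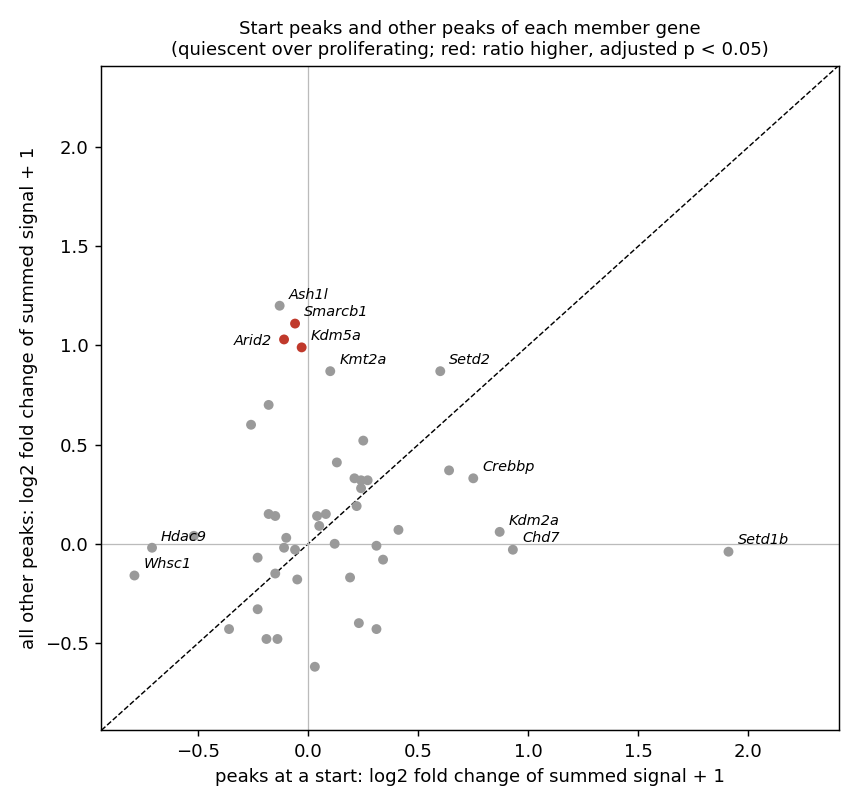
Each point is 1 of the 46 genes, with the log2 fold change of summed signal + 1 at its start peaks on the horizontal axis and at all its other peaks on the vertical axis, both quiescent over proliferating, and the dashed line marking equal change. Smarcb1, Arid2 and Kdm5a, in red, lie near 0 on the horizontal axis and near 1 on the vertical axis, and their ratio passed an adjusted p of 0.05. For genes with no annotated start, among them Arid2 and Kdm5a, start peaks are those within 1 kb of either gene end.

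Further genes of the same complexes and enzyme families, 105 in all, held 868 peaks, of which 788 were tested. Of these, 25 rose (3.17%) and 19 fell (2.41%) in quiescent cells, against 4.01% and 2.72% of all tested peaks. Their median log2 fold change was -0.02. Other acetyltransferase genes had 5 higher and 6 lower of 97 tested peaks, other deacetylase and corepressor genes 7 and 5 of 125, and other demethylase genes 3 and 2 of 80. Subunits of ISWI, INO80 and NuRD had 3 and 0 of 104, other SWI/SNF subunits 2 and 0 of 80, other CHD and bromodomain genes 2 and 1 of 134, and further cohesin and architecture genes 1 and 4 of 81. Methyltransferase partners and remaining methyltransferases had 2 and 1 of 87. Shares in these lists ran from 1.23% to 5.6% higher and from 0.0% to 6.19% lower, against the same backgrounds. By summed signal 2 of 103 of the further genes rose and 3 fell, against 3.94% and 3.68% of all genes. A difference between these genes and the 52 was not tested.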

How the data were processed

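The deposited table holds a scaled, not whole-numbered signal for 97124 peaks of a list common to the 6 samples. Bowtie2, SAMtools, MACS2 and mm10 are named per the submitters' processing notes, while versions, settings, the transposase offset and read counting are not described there. Low values lie on steps worth 1 read that change with peak strength, and from them reads were estimated (95.9% to 99.9% of values up to 1000 reads within 0.1 of a whole number). A count test had no raw counts to use. Peaks above the lowest 10% by mean were fitted with limma 3.58.1 (R 4.3.3, intensity trend) on log2(signal + 1), which understates the fold change of weak peaks, with Benjamini-Hochberg adjustment. Sums per gene and the ratio of other to start peaks were fitted in the same way over all genes, the ratio without the trend. Alternatives varied the pseudocount, filter, scaling, weights, block, gene assignment, start window and samples, and fitted estimated reads with limma-voom. The steps were tested on simulated data. Tables and plots used Python 3.11.15, numpy 2.4.6, pandas 2.3.3 and matplotlib 3.10.9.

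The 52 genes, the lists and the tests were chosen with earlier results of these data known. Fully described peaks are, per class, up to 3 called higher and 3 called lower with the largest fold change above the median signal, called or extreme start peaks, the strongest called peak each way in genes with both, and genes called by sum or ratio. Other called peaks were named after their values were seen. Same-numbered samples deviated together from their group means over all tested peaks (r = 0.43, 0.285 and 0.21 for numbers 1, 2 and 3), so the numbers were taken to pair the samples, although quiescent sample 2 and proliferating sample 3 (0.22) and quiescent sample 3 and proliferating sample 2 (0.146) did so too. Block calls are given for fully described values where they differ, and otherwise as counts.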

Additional observations from a re-analysis of the deposited data

How the results depend on the processing

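With the replicate number as a block, the pairing moved the calls to 15999 of all peaks, 106 peaks of the 52 genes, 7 starts, 3060 gene sums overall and 13 sums of the 52 genes, and it changed no other call of a fully described value beyond those given. With array weights these counts were 19077, 123, 9, 4184 and 15, and 10 ratios passed. A pseudocount of 5 gave 5 ratios. Estimated reads, alternatives chosen after seeing the data, gave 13275 peaks, 68 peaks of the 52 genes, 3123 gene sums and 7 sums of the 52 genes when scaled to totals, with a median of -0.174 for the genes' peaks. Scaled by median-of-ratios they gave 12118, 74, 2949 and 15, with 6 starts. Leaving out 1 sample gave 0 to 8241 of all peaks, 0 to 57 peaks of the 52 genes with a median of 0.026 to 0.134, 0 to 3 starts, 86 to 1888 gene sums, 0 to 5 sums of the 52 genes and 0 to 5 ratios. The remaining settings left each of these counts within 1.5 times. None of the 41 named values reversed in the settings it was fitted in (7 values for gene bodies alone and 3 for the 3 kb window). Leaving out quiescent samples 1, 2 and 3 in turn lost 11, 35 and 38 of their calls, and leaving out proliferating samples 1, 2 and 3 lost 1, 29 and 29. Depth was lowest in proliferating sample 1, where the median peak held 27 estimated reads, so weak peaks are the least certain.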
